A study of Mus musculus with 2 samples.

Results

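The 37 genes described here encode receptors for cytokines of the blood system, the JAK kinases and STAT factors that carry the signal from them, and proteins that limit the signal or are made in answer to it. They were listed by name, with earlier results of these data known. All 37 were found among the 20660 genes named on the array, where they had 55 probes in all and 25 of them had 1 probe. RNA came from pre CFU-E, erythroid progenitors that precede the erythroid colony-forming unit, sorted from the bone marrow of wild-type (WT) mice and of mice homozygous for a knockout of Esam (ESAM-KO), the gene of an adhesion molecule of endothelial cells and haematopoietic stem cells. The mice were of the C57BL/6 strain and 8 to 12 weeks old, and both genotypes had received a single injection of 120 mg/kg 5-fluorouracil (5-FU), which kills cycling cells, 8 days before the marrow was taken. The ESAM-KO mice were bred from heterozygous parents and the knockout was not restricted to blood cells. Cells were gated as lineage-negative and Sca1-negative, with c-Kit, endoglin and CD150 on the surface, low CD41 and no or low Fc gamma receptors II and III. Each genotype was measured on 1 Agilent 1-colour array, with RNA of cells sorted from the pooled marrow of 3 mice, so the comparison asked how ESAM-KO differed from WT during recovery from 5-FU, with no replicate on either side and no untreated array analysed here.

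Most of these receptors, though not all, are chains that have no enzyme of their own and that hold JAK kinases on the inner side of the membrane. When a cytokine binds them, the signal passes through these kinases. The kinases phosphorylate the receptor and then STAT factors, which enter the nucleus and switch on genes, among them SOCS family members that return to the receptor and damp it. In erythroid progenitors the best known case is erythropoietin, whose receptor works through JAK2 and STAT5 and keeps the cells alive as they mature.

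All values below are processed signals of the scanner software, after its background subtraction, and each ratio is ESAM-KO over WT after every array was set to its own 75th percentile. That percentile was 201.4 for WT and 251.1 for ESAM-KO, so scaling took 0.32 off each log2 ratio. The ± values are the software's own error of a log2 ratio, which covers spot noise and not the difference between mice, and their median was 0.20 for these genes. Where a probe was well above background on 1 array only, the ratio is a bound, written as at least so many fold, for which the dim array was taken at the probe's signal or, where that was lower, at the least signal that counted as well above background there (12.6 for WT and 13.2 for ESAM-KO). With 1 array per genotype no test was possible, and a difference of more than 2-fold, the study's criterion, describes these arrays only. In bulk RNA of this kind, fewer cells of a type and less RNA per cell cannot be told apart.

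The sort was checked by its markers. Kit, Eng, Slamf1, Itga2b, Gata1 and Klf1 were within 2-fold, and their probes counted as well above background in both genotypes. Of these, Slamf1 was close to background (17.8 in WT and 23.0 in ESAM-KO) and Itga2b was dim (35.8 and 29.7). Fcgr3 (40.9 and 45.5), a gene of the gate's Fc gamma receptors, was likewise within 2-fold and counted as well above background. Fcgr2b, another, was not above background on either array. Ly6a, which encodes Sca1, read 61.1 in WT and 12.3, not well above background, in ESAM-KO. Esam had a signal of 27.4 in WT and of 20.6 in ESAM-KO (log2 ratio -0.73 ± 0.31), which is a weak check of the genotype. Markers of other cells moved too. All 11 neutrophil markers on the array were more than 2-fold lower in ESAM-KO, with log2 ratios from -4.68 to -1.16 and a summed signal of 59981 in WT and 10099 in ESAM-KO. Of 10 markers of mast cells, basophils and eosinophils, 4 were lower by more than 2-fold (Epx, Prg2, Ear1 and, as a bound, Prss34). Ms4a2 was higher by more than 2-fold, also as a bound. The 10 had a summed signal of 4053 in WT and 2103 in ESAM-KO, or of 2555 and 269.0 without Gata2, which erythroid progenitors also express. Mcpt8, Fcer1a, Cpa3 and Cma1 were not above background on either array. Of 9 B cell markers, 4 were lower and none was higher, with a summed signal of 591.5 and 236.3. T and NK cell markers summed to 819.6 in WT and 1345 in ESAM-KO (1 of 9 lower). The 12 macrophage and monocyte markers on the array summed to 77168 and 83560 (1 higher, 1 lower), or to 793 and 1485 without Itgam, whose signal made up most of the sum. Itgam encodes Mac1, a lineage antigen of the gate, and its high signal rested on 1 probe. Its other probes read 269.6 in WT and 115.9 in ESAM-KO (-1.54), and 81.7 and 69.8 (-0.55). The part of such cells in any ratio below was not tested.

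**Figure D1:**
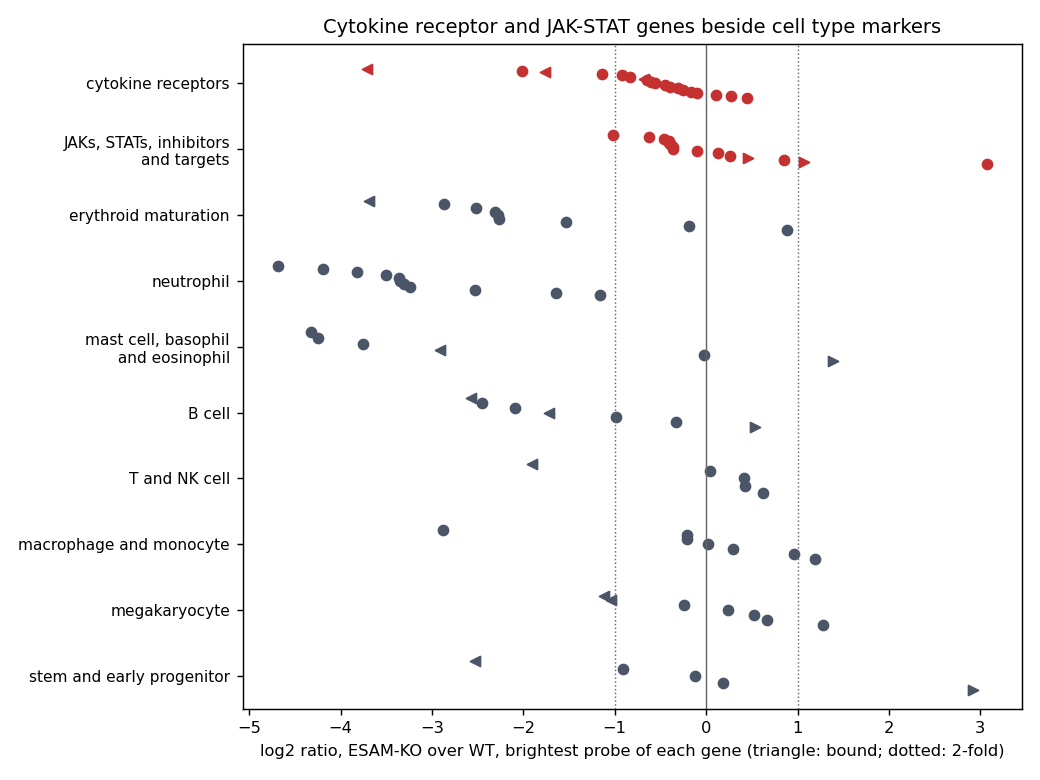
Log2 ratio of ESAM-KO over WT at the brightest probe of each gene with a ratio (horizontal axis, dotted lines at 2-fold), with the cytokine receptor and JAK-STAT genes in red above the markers of other cells in grey (1 line of points per list); circles were measured on both arrays and triangles are bounds. The neutrophil markers lie from -4.68 to -1.16, while the measured cytokine receptor and JAK-STAT genes run from -2.01 to 3.07 with most of them between 0 and the lower 2-fold line.

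Across the 37 genes, most differences were small and in the direction of lower signal in ESAM-KO. A ratio could be given for 34 genes, of which 29 were measured on both arrays and 5 (Csf2rb2, Il6ra, Il1r1, Socs1 and Socs3) were bounds. Il7r, Lifr and Osmr, which encode receptor chains for IL-7, leukaemia inhibitory factor and oncostatin M, were not above background on either array. Of the 34, Socs2 and Socs3 were higher by more than 2-fold, and Csf2rb2, Il6ra, Il6st, Il2rb and Stat6 were lower. These 7 were 20.6% of the genes with a ratio, while 15.4% of all 14136 genes with a ratio passed the same fold. Lower genes made up 14.7%, against 8.43% of all genes, and higher genes 5.88%, against 6.99%. Of the other 27 genes, 25 were measured within 2-fold, 19 of them within 1.5-fold, and Il1r1 and Socs1 had bounds under 2-fold, which do not place them inside it.

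The small shift was more even than the large differences. Of the 29 genes measured on both arrays, 22 (75.9%) had a log2 ratio below 0, with a median of -0.39, while 51.5% of all 12615 genes measured on both arrays were below 0 and their median was -0.02. Without scaling between the arrays the 2 medians were -0.069 and 0.30, which is the same shift for every gene, and the gap of 0.37 between them was 0.33 with quantile normalization and 0.30 with normexp. When all measured genes were divided into 4 equal bins of mean signal, the listed genes were lower in 1 of 4, 3 of 4, 8 of 9 and 10 of 12 cases from the dimmest bin to the brightest. In the brightest bin the 12 had a median of -0.33, while all genes of that bin had a median of 0.02 and 48.1% of them were lower, and none of the 12 passed 2-fold. The 22 receptors had 4 lower genes and none higher by more than 2-fold, and a median of -0.42 over the 16 measured. The 15 cytoplasmic genes had 1 lower and 2 higher, and a median of -0.37 over the 13 measured.

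**Figure D2:**
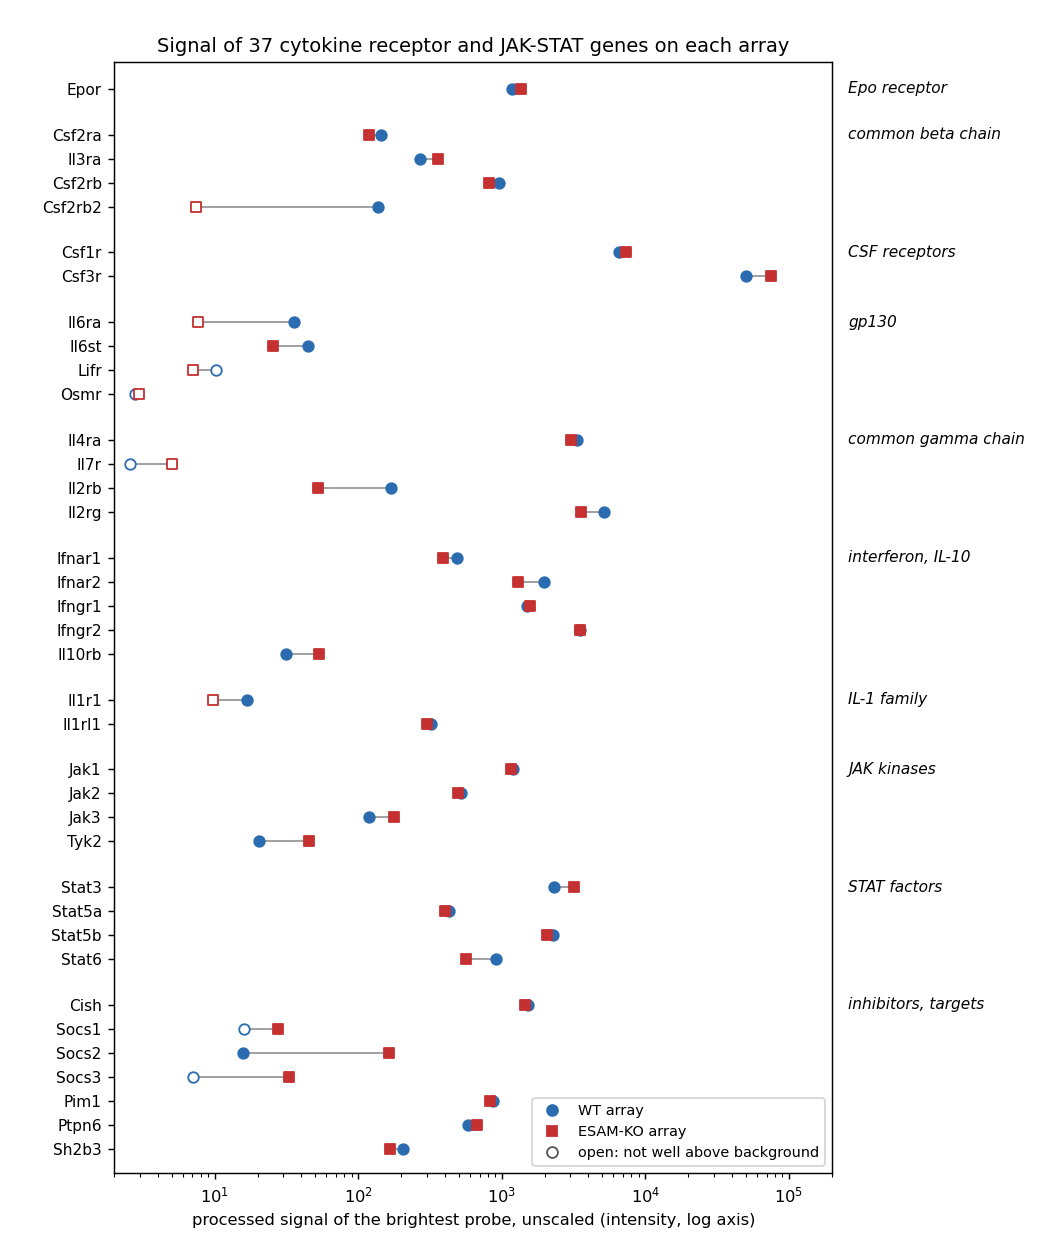
Processed signal of the brightest probe of each of the 37 genes (horizontal log axis, before scaling) on the WT array (blue circles) and the ESAM-KO array (red squares), ordered by role; open symbols were not well above background. The symbols nearly coincide for most genes, with the widest gaps at Csf2rb2 and Socs2, and of the 7 genes past 2-fold only Stat6 read over 200 on both arrays.

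**Figure D3:**
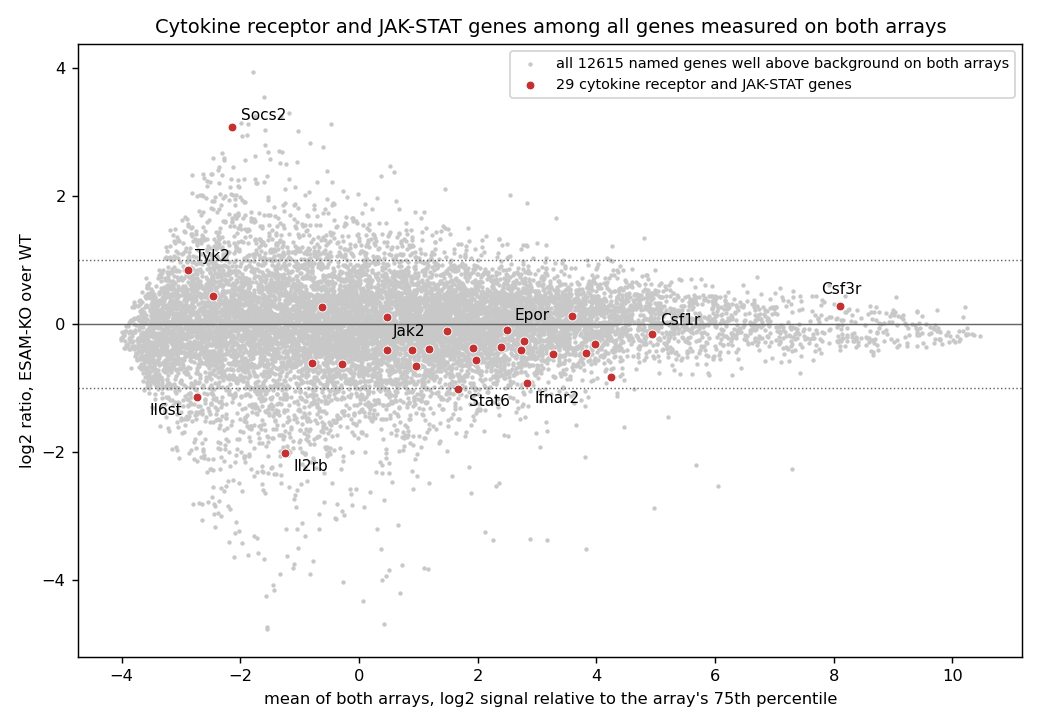
Log2 ratio of ESAM-KO over WT (vertical axis, dotted lines at 2-fold) against the mean log2 signal of both arrays relative to the 75th percentile (horizontal axis) for the 29 cytokine receptor and JAK-STAT genes measured on both arrays (red) and all 12615 genes so measured (grey). The red points lie mostly just below 0, with a median of -0.39 against -0.02 for all genes, and the ratios of all genes spread more widely at low signal.

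Transcripts of the erythropoietin receptor and of the proteins directly below it differed by less than 2-fold, with scaled log2 ratios below 0. Epor, which encodes the receptor, read 1175 in WT and 1371 in ESAM-KO (scaled log2 ratio -0.10 ± 0.20.) Jak2, the kinase bound to it, read 523.2 and 498.9, a log2 ratio of -0.39 ± 0.20. Neither differed by as much as 1.5-fold, and the Epor ratio was smaller than the scanner's own error. Stat5a, encoding one of the pair of STAT5 factors, read 429.6 in WT and 405.3 in ESAM-KO (log2 ratio -0.40 ± 0.20.) Stat5b, encoding the other, read 2279 and 2063 at its brighter probe (-0.46 ± 0.20) and 208.7 and 156.2 at its dimmer probe (-0.74 ± 0.21). Both probes of Stat5b were therefore lower, and both within 2-fold.

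Among the other JAK kinases, none passed 2-fold at its brightest probe. Jak1, which serves interferon and gp130 receptors, read 1195 in WT and 1161 in ESAM-KO (log2 ratio -0.36 ± 0.20.) Jak3, the partner of the common gamma chain, read 119.4 in WT and 178.5 in ESAM-KO at its brighter probe (0.26 ± 0.21). Its dimmer probe read 16.8 and 46.3, which was 2.21-fold higher in ESAM-KO (1.14 ± 0.32). Both Jak3 probes were higher, then, but only the one near background passed 2-fold. Tyk2, a kinase of interferon receptors, read 20.3 and 45.5, a log2 ratio of 0.85 ± 0.32, also from a signal close to background in WT.

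Of the 4 STAT factors among the 37 genes, Stat6, which carries the signal of IL-4, was the one past 2-fold, and its probes differed from each other. Its brightest probe gave 909.1 in WT and 560.3 in ESAM-KO, 2.02-fold lower (-1.02 ± 0.20). The next probe read 809.3 and 546.8 (-0.88 ± 0.20), and the dimmest 266.4 and 386.0 (0.22 ± 0.20). The brighter 2 probes were thus lower in ESAM-KO and the dimmest was higher, and the call for Stat6 rested on the brightest probe at the edge of the threshold. Stat3, which gp130 receptors and the G-CSF receptor activate, was covered by a probe printed as 10 spots, whose log2 ratios ran from 0.06 to 0.17 with a mean of 0.13. Its signal was 2328 in WT and 3168 in ESAM-KO, and the spread among its spots (SD 0.03) was far under the scanner error of 0.20.

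The inhibitors held both the genes that were higher by more than 2-fold, and the first of them, Socs2, had the greatest measured difference of the 37. Socs2 (NM_007706), a STAT5 target whose product limits growth hormone and cytokine signals, read 15.7 in WT and 165.1 in ESAM-KO at its brightest probe, 8.41-fold higher (3.07 ± 0.34). A probe printed as 8 spots was not above background in WT (4.45) and read 73.5 in ESAM-KO, at least 4.69-fold higher. A further probe of the same transcript read 54.6 in WT and 42.7 in ESAM-KO (log2 ratio -0.67 ± 0.25.) Of the 3 Socs2 probes, then, 2 were much higher in ESAM-KO and 1 was slightly lower, the widest disagreement among the 9 genes with more than 1 probe measured on both arrays (3.74 on the log2 scale). Socs3 (NM_007707), which binds gp130 and the G-CSF receptor, read 7.02 in WT, not above background, and 33.0 in ESAM-KO, at least 2.11-fold higher. Socs1, the inhibitor of interferon receptors and JAK2, read 16.0 in WT, not above background, and 27.4 in ESAM-KO, at least 1.37-fold higher. All 3 SOCS genes were thus near or under background on the WT array at the probe used.

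The remaining inhibitors and targets did not pass 2-fold. Cish, a STAT5 target and the founding member of the SOCS family, read 1531 in WT and 1445 in ESAM-KO (log2 ratio -0.40 ± 0.20.) Pim1, a survival kinase induced by STAT5, read 862.1 and 833.6 (-0.37 ± 0.20). These STAT5 targets, with 1 probe each, did not share the difference seen at the brightest Socs2 probe. Ptpn6, the phosphatase SHP-1 that removes phosphate from the erythropoietin receptor complex, read 581.9 and 676.1 (-0.10 ± 0.20). Sh2b3, the adaptor LNK that restrains JAK2, read 204.3 and 165.4 (-0.62 ± 0.21), 1.54-fold lower.

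The start regions of these genes were searched for TTCNNNGAA, the palindrome that STAT dimers bind, which reads the same on both strands. RefSeq windows on GRCm38.p6, of 250 bases before and 50 after each annotated start, were at hand for 32 of the 37 genes (38 windows), and Csf1r, Csf2rb, Il2rb, Il10rb and Socs2 had none. The motif was present in 6 of the 38 windows (15.8%), those of Cish, Socs3, Il7r, Csf2rb2, Ifnar1 and Ifnar2, and in 8.30% of all 32851 windows. Cish was the one gene of the 37 with 2 copies, at 0 and 11 bases after its start, a feature of 0.457% of all windows. The windows of Cish, Socs3 and Csf2rb2 are given because Cish has the paired motif with a nearly equal signal, and Socs3 and Csf2rb2 are the genes past 2-fold whose windows hold it; capitals mark the motif, which begins 154 bases before the start in Socs3 and 15 bases before it in Csf2rb2. The Cish window lies on the plus strand at chr9:107296409-107296708, that of Socs3 on the minus strand at chr11:117969317-117969616, and that of Csf2rb2 on the minus strand at chr15:78305672-78305971.
Cish: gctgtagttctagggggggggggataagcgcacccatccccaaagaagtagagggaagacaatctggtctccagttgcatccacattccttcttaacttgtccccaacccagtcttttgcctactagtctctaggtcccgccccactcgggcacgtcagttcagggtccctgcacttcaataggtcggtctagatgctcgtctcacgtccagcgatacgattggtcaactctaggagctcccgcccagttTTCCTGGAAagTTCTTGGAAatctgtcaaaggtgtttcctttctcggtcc
Socs3: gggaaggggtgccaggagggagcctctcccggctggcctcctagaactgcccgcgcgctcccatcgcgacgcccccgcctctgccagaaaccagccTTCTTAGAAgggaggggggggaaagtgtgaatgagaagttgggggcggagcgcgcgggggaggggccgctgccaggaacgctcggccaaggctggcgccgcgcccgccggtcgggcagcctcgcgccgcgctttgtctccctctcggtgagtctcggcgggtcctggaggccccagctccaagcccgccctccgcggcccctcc
Csf2rb2: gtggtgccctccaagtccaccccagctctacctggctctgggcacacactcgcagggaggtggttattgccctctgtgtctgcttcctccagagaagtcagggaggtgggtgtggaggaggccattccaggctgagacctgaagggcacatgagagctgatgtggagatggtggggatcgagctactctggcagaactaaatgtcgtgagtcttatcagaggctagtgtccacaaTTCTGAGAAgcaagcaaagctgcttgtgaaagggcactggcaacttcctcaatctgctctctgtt
A match is a description of these letters and not of a bound site, and the gene with the paired motif was unlike Socs3 and Csf2rb2 in its ratio, as those were unlike each other in direction.

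The receptors that share the beta chain of GM-CSF, IL-3 and IL-5 were divided. Csf2rb2 (NM_007781), the mouse chain that serves IL-3 alone, read 137.8 in WT and 7.40, not above background, in ESAM-KO, at least 13.1-fold lower. Its dimmer probe read 18.8 and 13.7, the latter not above background, at least 1.71-fold lower. Both probes of Csf2rb2 were therefore lower, though by very different bounds. Csf2rb (NM_007780), the chain common to all 3 cytokines and a close paralogue of Csf2rb2, read 961.5 and 814.4 (-0.56 ± 0.20) at its brighter probe, and 26.1 and 17.6 (-0.89 ± 0.38) at its dimmer one. The difference was thus smaller for Csf2rb than for its paralogue at the brighter probes and not at the dimmer ones, and whether either set of probes also binds the other transcript could not be checked without the probe sequences. The ligand-binding chains were within 2-fold, with Csf2ra for GM-CSF at 143.9 and 118.4 (-0.60 ± 0.21) and Il3ra for IL-3 at 269.9 and 362.2 (0.11 ± 0.20).

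At the probes used, the receptors for the single-lineage colony-stimulating factors were bright on both arrays and did not pass 2-fold. Csf3r, the G-CSF receptor of neutrophils and their progenitors, read 50144 in WT and 75698 in ESAM-KO (log2 ratio 0.28 ± 0.20.) Csf1r, the M-CSF receptor of monocytes and macrophages, read 6554 and 7310 (-0.16 ± 0.20), and a dimmer probe read 63.2 and 124.6 (0.66 ± 0.21). A further Csf1r probe read 9.99 and 16.1, not above background on either array, so the high Csf1r signal rested on 1 probe. The Csf3r ratio, from 1 probe, was above 0 by little more than the scanner error, while all 11 neutrophil markers were below 0. The part of neutrophils in the Csf3r signal was not tested.

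Both gp130 receptor chains that could be measured were lower. Il6st, which encodes gp130, the shared subunit of the IL-6 family, read 44.8 in WT and 25.3 in ESAM-KO, 2.21-fold lower (-1.14 ± 0.27). Il6ra, the IL-6 binding chain, read 35.7 and 7.65, not above background, at least 3.39-fold lower. Each had 1 probe, with a WT signal under the array's 75th percentile, and Lifr and Osmr, the other chains of the group, had signals of 10.3 or less at all their probes.

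Among the 37 genes, the 3 measured receptors of the common gamma chain group were all lower. Receptors of this group in the wider pathway list were mixed. Il15ra had log2 ratios of -0.003 and -0.74 at its 2 probes, Il21r was at least 4.43-fold lower, and Il9r was at least 2.35-fold higher. Il2ra was not above background on either array. Il2rb, the beta chain for IL-2 and IL-15, read 169.6 in WT and 52.5 in ESAM-KO, 4.03-fold lower (-2.01 ± 0.22), the lowest ratio among the genes measured on both arrays. Il2rg, which encodes the common gamma chain, read 5122 and 3592, 1.78-fold lower (-0.83 ± 0.20). Il4ra, the IL-4 receptor, read 3332 and 3044 at its brighter probe (-0.45 ± 0.20), while its dimmer probe was above background in ESAM-KO only and at least 1.25-fold higher. T and NK cells are known for Il2rb, and their 4 markers measured on both arrays had log2 ratios from 0.04 to 0.62, with 1 further marker lower as a bound. The highest was Cd4, whose other probe, of 10 spots, gave -0.06. The remaining 4 markers (Cd3g, Cd8a, Ncr1 and Klrb1c) were not above background on either array. The part of such cells in the Il2rb ratio was not tested.

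Of the interferon receptors, the chains for type I interferon were lower, and those for type II interferon were lower by less. Ifnar1 read 490.9 in WT and 390.6 in ESAM-KO at its brightest probe (-0.65 ± 0.20), 199.6 and 81.1 at the next (-1.62 ± 0.21, 3.07-fold lower), and 86.0 and 52.2 at the dimmest (-1.04 ± 0.22, 2.05-fold lower). All 3 Ifnar1 probes were lower, but the brightest, which stood for the gene, was within 2-fold. Its partner Ifnar2 read 1978 and 1303, 1.89-fold lower (-0.92 ± 0.20). The chains of the interferon gamma receptor had smaller differences, with Ifngr1 at 1504 and 1571 (-0.26 ± 0.20) and Ifngr2 at 3505 and 3533 (-0.31 ± 0.20). Before scaling, the log2 ratios were -0.33 for Ifnar1 at its brightest probe, -0.60 for Ifnar2, 0.06 for Ifngr1 and 0.01 for Ifngr2. Il10rb, a chain shared by IL-10 and its relatives, read 31.4 and 53.4 (0.45 ± 0.26).

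The IL-1 family receptors, which signal without JAK kinases, gave no ratio or bound past 2-fold at the probes used. Il1rl1, the IL-33 receptor ST2 of mast cells and basophils, read 319.8 in WT and 302.3 in ESAM-KO (-0.40 ± 0.20) and 86.7 and 112.6 at a second probe (0.06 ± 0.21). A probe of its other transcript (NM_010743) read 25.7 and 13.0, the latter not above background, at least 2.44-fold lower. The largest Il1rl1 difference was thus at its dimmest probe, and the other 2 probes lay on both sides of 0. Il1r1, the receptor of IL-1 itself, read 16.9 and 9.74, not above background, at least 1.60-fold lower.

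**Figure D4:**
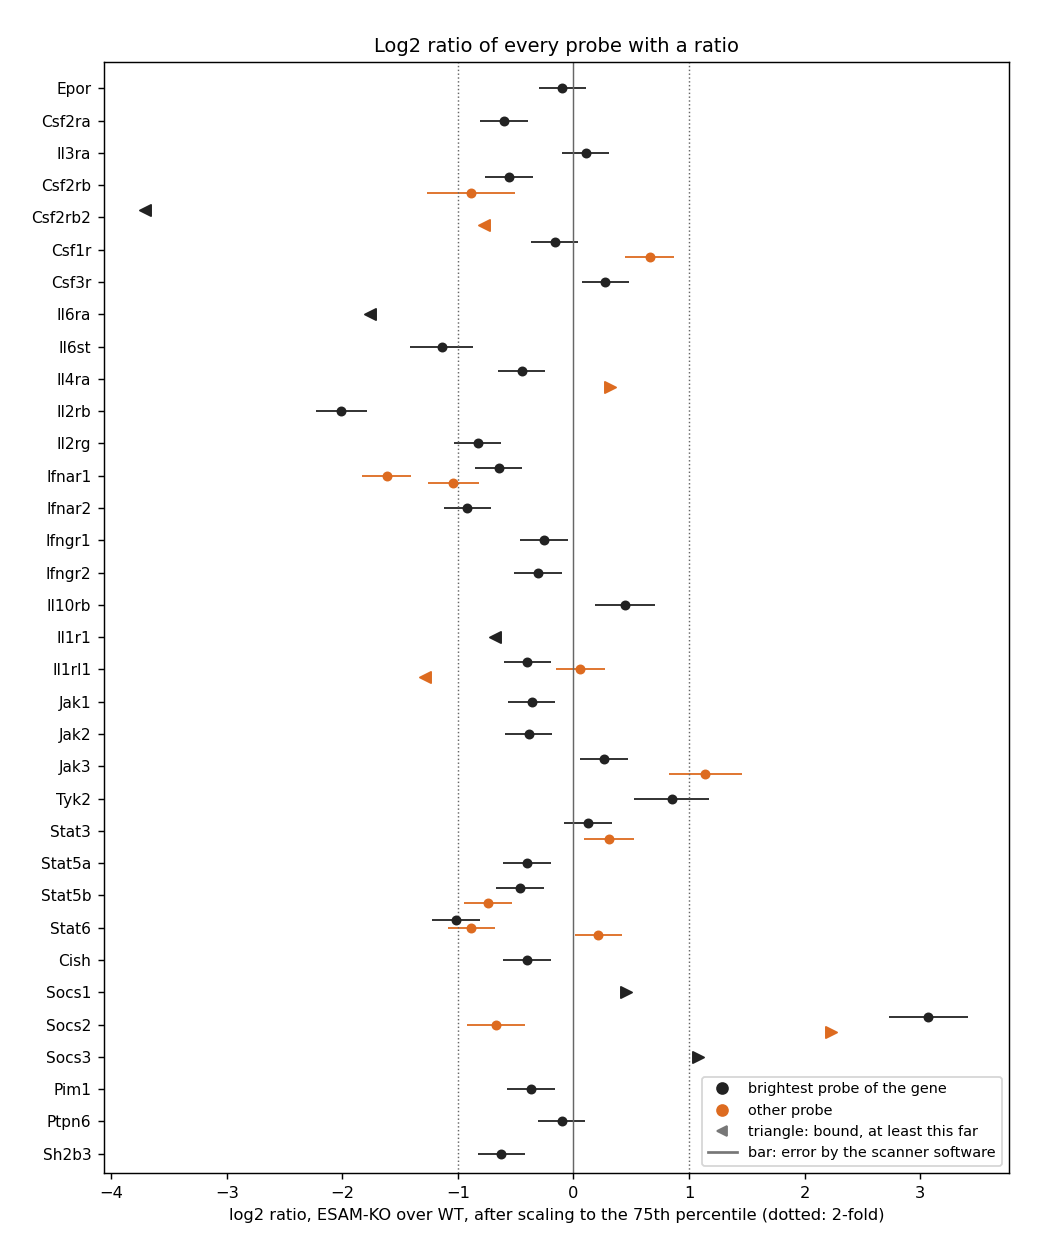
Log2 ratio of ESAM-KO over WT (horizontal axis, dotted lines at 2-fold) at each probe with a ratio of the 34 genes, with the brightest probe of a gene in black and its other probes in orange; circles were measured on both arrays, bars are the error given by the scanner software, and triangles are bounds. Socs2 at 3.07 and Il2rb at -2.01 are the extremes of the measured values at the brightest probes, and the probes of Socs2, Stat6 and Csf1r lie on both sides of 0.

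The rest of the pathway was taken as a list of 88 genes, all on the array. A ratio could be given for 68, with 7 genes more than 2-fold higher, 10 more than 2-fold lower, 49 measured within 2-fold and 2 with a bound under it (Csf2 and Pim2), and the median of the 61 measured on both arrays was -0.12 (33 lower). The higher genes were 10.3% and the lower genes 14.7% of the 68, beside 6.99% and 8.43% of all genes. Of the 19 ligands, 13 had no ratio, Epo among them. The 16 further inhibitors had none higher and 3 lower by more than 2-fold, namely Pias1, Pias3 and Cblb. The PIAS proteins hold back STAT factors in the nucleus. Pias1 read 1128 in WT and 594.9 in ESAM-KO (-1.24 ± 0.20), and its other 2 probes were lower as well by more than 2-fold. Pias3 read 118.3 and 47.2 (-1.64). Cblb, a ubiquitin ligase, read 121.2 and 64.2 (-1.23), with its other probe at -0.41. Each of these 3 inhibitors was thus lower, while Socs2 and Socs3 were higher at the probes used. Of the 15 further inhibitors measured on both arrays, 10 had a log2 ratio below 0 and 5 above it.

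Among the other listed receptors, Crlf2, the receptor chain for TSLP, read 580.1 in WT and 341.2 in ESAM-KO (-1.08), and its ligand gene Tslp read 158.1 and 42.1 (-2.23). Il12rb2, a chain of the IL-12 receptor, read 227.4 and 127.0 (-1.16), with its other probe at -0.13. Kit, the stem cell factor receptor with a kinase of its own, stayed within 2-fold, at 3414 and 3326 (-0.36). Stat2, which acts below the type I interferon receptor, was higher, at 155.9 and 394.9 (1.02). Gab1, an adaptor that recruits PI3 kinase, was higher at 25.3 and 75.3 (1.25).

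The erythropoietin response genes lay on both sides of 0. Bcl2l1, the survival gene BCL-X, read 613.9 in WT and 251.5 in ESAM-KO, 3.04-fold lower (-1.61), and its other probe read -0.67. Erfe, which encodes the hormone erythroferrone that erythroblasts make under erythropoietin, read 51.6 and 134.9 on a probe of 10 spots (1.07, spots from 0.86 to 1.23), and its other probe also gave 1.07. Both Bcl2l1 probes were thus lower and both Erfe probes higher. Tfrc, the transferrin receptor, read 2374 and 5466 (0.89). Myc and Mcl1 had log2 ratios of -0.32 and -0.31, and their unscaled signals were nearly equal. Of the 15 genes in this group, 1 was higher and 1 lower by more than 2-fold. Beside them, 7 of 9 erythroid maturation markers on the array were lower by more than 2-fold, with a median of -2.27 over those measured and a summed signal of 96831 in WT and 32328 in ESAM-KO (27359 and 14263 without Hba-a1), and the part of maturing cells in these ratios was not tested.

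**Figure D5:**
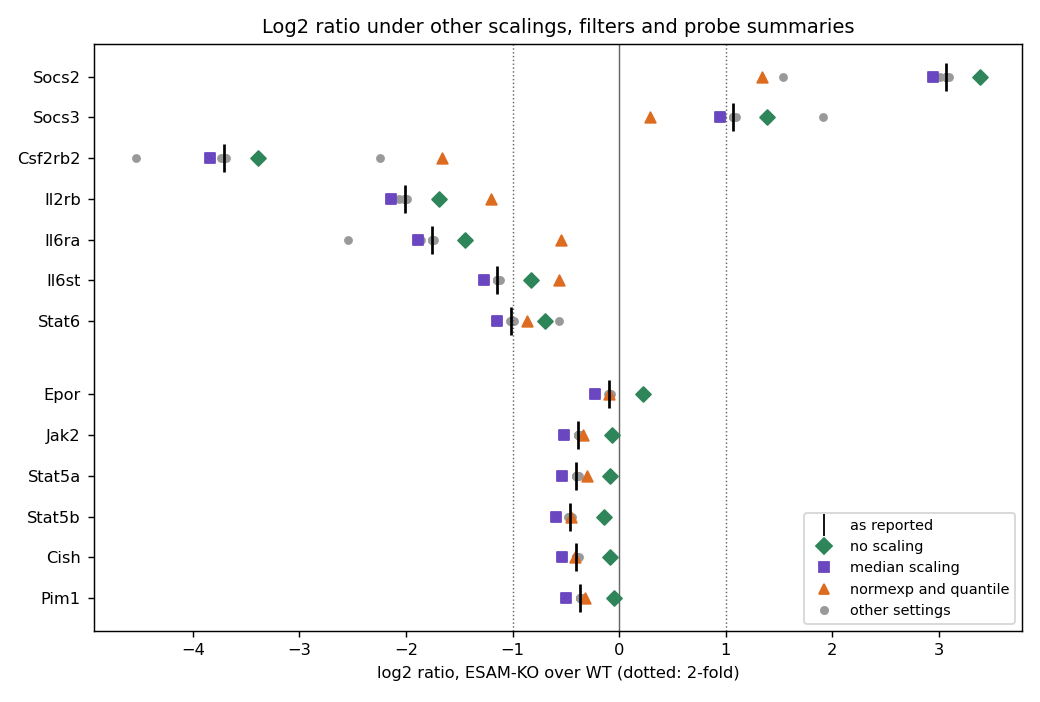
Log2 ratio of ESAM-KO over WT (horizontal axis, dotted lines at 2-fold) as reported (black bars) and under other settings (coloured and grey symbols) for the 7 genes past 2-fold and, below them, 6 genes of the erythropoietin receptor chain. Socs2, Csf2rb2 and Il2rb stay past 2-fold under every setting with a value, Stat6 (-1.15 to -0.56) and Socs3 (0.29 to 1.92) cross the 2-fold line, and Epor stays between -0.23 and 0.22. The Socs2 probe that gave -0.67 enters only in the mean of probes.

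The 7 calls were not equally firm under other processing. Csf2rb2 (-4.54 to -1.66), Il2rb (-2.14 to -1.20) and Socs2 (1.34 to 3.39) kept to their side of 2-fold under every setting that gave a value. Apart from the mean of probes, these settings read each gene at its brightest probe, so they vary the processing and not the probe. Another Socs2 probe lay on the other side of 0 (-0.67), and the dimmer Csf2rb2 probe was at least 1.71-fold lower. Il6ra, Il6st, Stat6 and Socs3 each came within 2-fold under at least 1 setting. Of the 7, Stat6 alone read over 200 on both arrays.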

How the data were processed

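The arrays were 1-colour Agilent arrays, 1 for WT and 1 for ESAM-KO, which shared a slide and a scan. The scanner files that the authors deposited give each spot's intensity after background subtraction, with its error and flags, and come from Agilent Feature Extraction (10.10.1.1 in the submitters' processing notes). These intensity values recur, unscaled, in the series table. The study names no scaling and no filter on dim probes.

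Control spots and 254 spots marked as outliers were left out, spots of a probe were averaged, and log2 intensity minus the array's 75th percentile was compared. Probes with over 50% of their spots well above background were taken as such (57.3% of all spots for WT, 61.1% for ESAM-KO), and saturation was not met. A gene was read at its probe of highest mean signal. RefSeq accessions of GRCm38.p6, matched without versions and used for names, named 27235 probes (48.9%); 0 columns of sample values were unused.

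The 37 genes, the pathway and marker lists and the rule for named genes (probes past 2-fold, the erythropoietin receptor chain, shared subunits, and the 10 brightest listed pathway genes past 2-fold) were chosen with earlier results of these data known. Pathway genes outside that rule, and the promoter windows shown, were picked after their values were seen. Alternatives covered scaling, normexp (offset 50, on median spot signals, as the files hold no mean), the series table, dim-probe filters, outlier spots, the mean of probes and the fold threshold, and any probe of a gene, chosen after seeing the data. The software was Python 3.11.15 (pandas 2.3.3, matplotlib 3.10.9, numpy 2.4.6) and R 4.3.3 (limma 3.58.1). Counts were tested on simulated data in which the changed genes had a WT signal over 200 and no bounds arose. That test therefore did not cover dim genes or bounds. The values of some genes of the lists are not reported here.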

Additional observations from a re-analysis of the deposited data

How the results depend on the processing

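The count of higher genes (2 of the 37) became 1 with each array set to its median, with quantile normalization, with normexp, with a filter on background at both arrays, and at 3-fold, and 3 without scaling, at 1.5-fold and with any probe. The count of lower genes (5) became 3 without scaling (3 higher and 3 lower in place of 2 and 5), with that filter and at 3-fold, 2 with normexp and 11 at 1.5-fold. For all genes with a ratio, the higher share (6.99%) was 5.35% with the median, 6.23% with quantile normalization and 1.67% with normexp. It was 5.22% with the filter, 2.24% at 3-fold, 12.7% without scaling and 15.6% at 1.5-fold. The lower share (8.43%) was 5.12% without scaling, 7.37% with the filter, 3.57% at 3-fold, 3.44% with normexp and 17.6% at 1.5-fold. The median of the measured genes (-0.39) was -0.069 without scaling, which moved the median of all genes by 0.32. Of the other pathway genes, 7 higher became 11 without scaling, 0 with normexp, 13 at 1.5-fold and 1 at 3-fold, and 10 lower became 5, 3, 17 and 5. With any probe of a gene, an alternative chosen after seeing the data, 3 of the 37 were higher and 7 lower. The like share of all genes is not given, so these counts have nothing to stand beside. For all genes, 54.7% of calls were lower, against 28.8% without scaling, 66.8% with the median and 67.3% with normexp. The cause of these moves was not tested, apart from the smaller set under the filter and the thresholds themselves.

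Of 334 values of the single genes over 10 settings, 289 moved by less than the scanner error, 45 by more, and none past 2-fold turned its direction. No paired analysis was possible because WT and ESAM-KO have 1 array apiece, and leaving out an array was not possible either. Dim signals limit most calls: 3 of the 37 genes had no ratio and 5 had a bound.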

Other observations

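Further genes of the pathway list past 2-fold, picked after their values were seen, were dim. Sos1, which links receptors to RAS, read 24.6 in WT and 77.1 in ESAM-KO (log2 ratio 1.33), and Osm, the oncostatin M gene and a STAT5 target, read 22.7 and 64.1 (1.18). Il1r2, the decoy receptor that binds IL-1 without signalling and is known from neutrophils, read 47.2 in WT and 3.31 in ESAM-KO, not above background, at least 4.47-fold lower. Il21r was at least 4.43-fold lower and Il11 at least 2.01-fold lower, while Il20rb was at least 3.68-fold and Il9r at least 2.35-fold higher. Il1r2 and Il1r1, the decoy and the signalling receptor of IL-1, were therefore both bounds on the lower side.

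Of the 9 genes of the 37 with more than 1 probe measured on both arrays, 5 had all such probes on 1 side of 0 (Csf2rb, Ifnar1, Jak3, Stat3 and Stat5b) and 4 did not (Csf1r, Il1rl1, Socs2 and Stat6). Reading any probe, 10 of the 37 genes passed 2-fold, and Ifnar1, Il1rl1 and Jak3 did so only at a dimmer probe. The like share of all genes is not given.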
